A study of Mus musculus with 12 samples.

Results

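The MAP kinase phosphatases Dusp1, Dusp2, Dusp5, Dusp6 and Dusp10 were followed through the 4 ways in which mouse brain myeloid cells were prepared for single-cell sequencing. They are 5 of the 31053 genes listed in the count matrices and 5 of the 24 whose symbol starts with Dusp. They were given by symbol, with earlier results of these data known. Whole brains came from 12 male C57BL/6J mice at postnatal day 90, with no genotype contrast, and 1 library was made per animal from cells sorted for the surface proteins CD45 and CD11b. In DNC-NONE (n = 3 libraries) the tissue was broken up in the cold by Dounce homogenization, a mechanical method, with no inhibitor, and in DNC-INHIB (n = 3) the same was done with inhibitors of transcription and translation (actinomycin D, triptolide and anisomycin). In ENZ-NONE (n = 3) the tissue was digested warm with enzymes and no inhibitor, and in ENZ-INHIB (n = 3) it was digested with the inhibitors. The comparison asks which of the phosphatase genes differ with warm digestion and which do not.

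MAP kinases are switched on by phosphorylation of a threonine and a tyrosine, and dual-specificity phosphatases of this family switch them off by removing both phosphates. Several of them are themselves rapidly transcribed once a MAP kinase pathway fires, which makes them negative feedback genes. Dusp1 is a nuclear, immediate early phosphatase that acts on p38, JNK and ERK. Dusp2 and Dusp5 are nuclear and inducible, with Dusp5 selective for ERK. Dusp6 is a cytoplasmic, ERK-selective phosphatase, and Dusp10 acts mainly on JNK and p38. In macrophages Dusp1 is known for limiting the production of inflammatory cytokines, a role not shared by every member of the family.

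A unique molecular identifier (UMI) marks 1 captured transcript, so the counts below are UMIs. A level is given in CPM, the UMIs of a gene for each 1000000 UMIs in the kept cells of a library. UMIs come from transcript 3′ ends and were not divided by length, so levels are compared within a gene and not between genes. Across the 12 libraries 18826 cells were kept, between 853 and 2185 per library, with a median of 1153 to 1572 UMIs per cell. All 10 microglia markers (among them Tmem119 and P2ry12) were detected in all 12 libraries, and 99.8% of kept cells held at least 1 of them. Pairs of libraries shared between 0 and 12 cell barcodes. DNC-NONE replicate 2 had the fewest kept cells. By the labels, the libraries were made in a pair of batches, and ENZ-INHIB replicates 2 and 3, ENZ-NONE replicate 6, DNC-INHIB replicates 5 and 6 and DNC-NONE replicate 3 formed batch 2, while the remaining 6 libraries formed batch 1. ENZ-NONE replicate 6, the highest library for Dusp1 and Dusp6, is the only ENZ-NONE library of batch 2, so that animal and that batch cannot be told apart. Summed border macrophage markers ran from 45.6 to 128 CPM in ENZ-NONE and monocyte markers from 796 to 1688, against 49.1 to 310 and 698 to 2021 over the other groups. All genes of both lists were detected in every group. Neutrophil markers reached 3933 CPM in DNC-NONE and 10.99 in ENZ-NONE, where Ly6g was at 0, and their part in the differences below was not tested.

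The genes lie apart in the mouse genome (GRCm38, GENCODE annotation, 1-based). Dusp1 (ENSMUSG00000024190) spans bases 26505590 to 26562128 of chromosome 17 on the minus strand, and Dusp6 (ENSMUSG00000019960) spans bases 99263231 to 99267489 of chromosome 10 on the plus strand. Dusp2 (ENSMUSG00000027368) is on chromosome 2 from 127336159 to 127338376, Dusp5 (ENSMUSG00000034765) on chromosome 19 from 53529109 to 53542431 and Dusp10 (ENSMUSG00000039384) on chromosome 1 from 184013302 to 184075636, all on the plus strand. Dusp1 overlaps 4 annotated genes, Dusp5 and Dusp10 overlap 1 each, and Dusp2 and Dusp6 overlap none. Of the genes overlapping Dusp1, Gm8225 and Ergic1 are listed in the matrices. Counts of a gene and of a partner on the other strand can be told apart only if strand was used in counting, which the sources used here do not state.

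Upstream sequence is shown for the phosphatase with the large difference (Dusp1), the abundant one without it (Dusp6) and the sparse one with serum response type matches (Dusp5). RefSeq sequence of GRCm38.p6 was available for all 5 members, and the 250 bases before each RefSeq start were searched on both strands. The Dusp1 and Dusp10 windows lie inside the GENCODE spans given above, so they do not precede the outermost annotated start. Capitals mark matches. Bases that GENCODE places in an exon of the same gene are not printed. Exons of any annotated gene cover 250 bases of the Dusp5 window, 171 of the Dusp10 window and 47 of the Dusp1 window. The Dusp1 stretch is chr17:26508520-26508722 on the minus strand (positions -250 to -48 from the start), the Dusp5 stretch chr19:53528895-53529108 on the plus strand (-250 to -37) and the Dusp6 stretch chr10:99262981-99263230 on the plus strand (-250 to -1).
Dusp1: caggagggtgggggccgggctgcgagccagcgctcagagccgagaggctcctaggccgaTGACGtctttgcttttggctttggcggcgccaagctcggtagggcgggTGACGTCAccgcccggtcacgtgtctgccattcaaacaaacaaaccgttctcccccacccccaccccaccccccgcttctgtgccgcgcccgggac
Dusp5: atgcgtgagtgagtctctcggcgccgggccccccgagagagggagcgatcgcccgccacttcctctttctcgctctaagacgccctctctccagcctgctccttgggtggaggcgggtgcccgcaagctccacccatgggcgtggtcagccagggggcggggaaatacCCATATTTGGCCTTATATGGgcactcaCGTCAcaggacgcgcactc
Dusp6: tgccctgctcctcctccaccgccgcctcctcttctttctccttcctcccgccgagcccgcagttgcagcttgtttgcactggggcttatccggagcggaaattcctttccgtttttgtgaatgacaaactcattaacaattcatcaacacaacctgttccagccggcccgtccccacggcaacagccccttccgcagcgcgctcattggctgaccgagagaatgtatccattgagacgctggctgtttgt
The Dusp1 window held the full cAMP response element TGACGTCA at -143, a match present in 1.55% of the 32851 windows of the same length. Its core TGACG was found 3 times, at -191 and, within the full element, at -143 and -140, and 17.8% of windows held that core. The Dusp5 window held a pair of CArG boxes, at -82 and -72 (1.47% of windows), and 1 such core at -55. The Dusp2 window held 1 EGR site (GCGNGGGCG) at -98, found in 4.70% of windows. No match to any searched motif lay in the Dusp6 or Dusp10 window, and none of the 5 held an AP-1 site (TGANTCA, 6.75% of windows), a heat shock element (GAANNTTC, 6.69%), an NF-kB site (7.25%) or a TATA box as TATAAA (12.4%). These are letter matches in 1 window per gene and do not show binding.

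Dusp1, the broad-acting nuclear phosphatase, was near the detection limit in 9 libraries and abundant in the 3 ENZ-NONE libraries. The counts were 38, 5 and 4 UMIs in DNC-NONE replicates 1, 2 and 3, 13, 8 and 26 in DNC-INHIB replicates 4, 5 and 6, and 20, 19 and 11 in ENZ-INHIB replicates 1, 2 and 3. They were 770, 578 and 3283 in ENZ-NONE replicates 4, 5 and 6. Every ENZ-NONE library was far above every other library, and replicate 6 stood above its own group. As levels, ENZ-NONE had 354, 376 and 1203 CPM, with a mean of 644 ± 484 (SD, n = 3). The means were 7.41 ± 3.25 in ENZ-INHIB, 5.76 ± 2.53 in DNC-INHIB and 7.38 ± 6.89 in DNC-NONE (SD, n = 3 each), and these 3 groups overlapped.

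**Figure D1:**
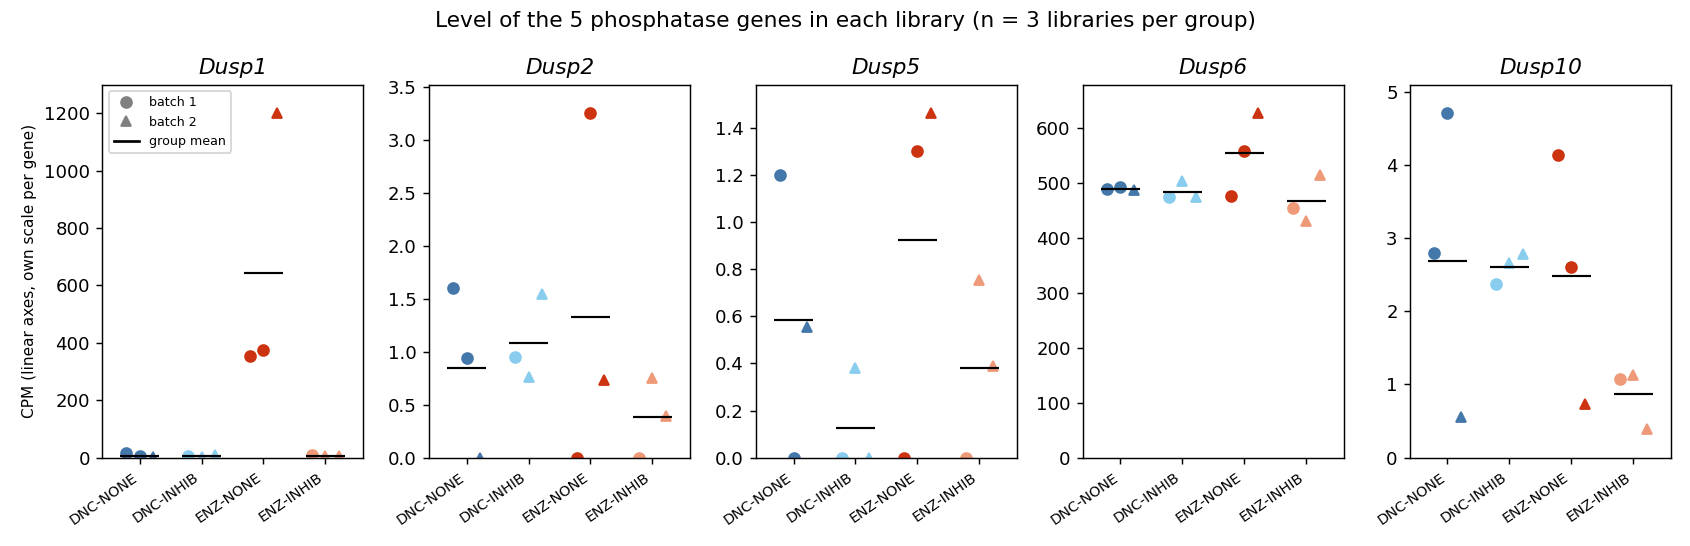
CPM (y axis, linear, with its own scale for each gene) of the 5 genes in each of the 12 libraries, with circles for batch 1, triangles for batch 2 and a line at each group mean. Dusp1 lies between 354 and 1203 in the ENZ-NONE libraries and at or below 15.2 in the other 9, Dusp6 lies between 431 and 628 throughout, and the other 3 genes stay below 5 in every library.

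Over library sums, Dusp1 was higher in ENZ-NONE than in each of the other 3 groups (edgeR quasi-likelihood test, Benjamini-Hochberg adjustment over 9882 genes, called at adjusted p below 0.05 and an absolute log2 fold change above 0.58). The log2 fold change was 6.30 against DNC-NONE (SE 0.78, adjusted p = 0.0110), which is 78.7-fold with a 95% interval of 22.7 to 272. Against ENZ-INHIB, the comparison of digestion with and without inhibitors, it was 6.55 (SE 0.77, adjusted p = 0.0147), or 93.6-fold with an interval of 27.6 to 318. Against DNC-INHIB it was 6.83 (SE 0.78, adjusted p = 0.00471), or 114-fold with an interval of 33.1 to 391. These comparisons share the ENZ-NONE libraries. With only the animals of batch 1, the ENZ-NONE mean was 365 CPM against 9.22 in the other 4 libraries, and in batch 2 the values were 1203 and 4.95.

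All 3 calls were also made with DESeq2 (adjusted p = 3.96e-14, 9.81e-15 and 2.68e-16 against DNC-NONE, ENZ-INHIB and DNC-INHIB). With no robust option for the spread, edgeR gave adjusted p = 1.83e-06, 7.77e-07 and 5.60e-07 in the same order. Libraries were left out in turn only in the edgeR fit above, where some of these calls depended on single control libraries. Against DNC-NONE the adjusted p rose to 0.0733 without DNC-NONE replicate 2 (log2 fold change 6.13) and to 0.0673 without replicate 3 (5.85). Against ENZ-INHIB it rose to 0.0754, 0.134 and 0.129 without ENZ-INHIB replicates 1, 2 and 3, with log2 fold changes of 6.84, 6.56 and 6.27. Without ENZ-NONE replicate 6 the log2 fold changes were 5.42, 5.68 and 5.96 against DNC-NONE, ENZ-INHIB and DNC-INHIB, and all 3 calls were made (highest adjusted p 0.000882).

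Among the 3 groups other than ENZ-NONE, no difference in Dusp1 was called. The log2 fold changes were 0.53 for DNC-NONE against DNC-INHIB (95% interval -2.28 to 3.35, adjusted p = 0.999), 0.28 for ENZ-INHIB against DNC-INHIB (-2.48 to 3.05, adjusted p = 0.985) and -0.25 for ENZ-INHIB against DNC-NONE (-3.03 to 2.52, adjusted p = 0.980). At these counts a difference of several fold in either direction lies within the intervals. The test of whether the inhibitor effect differed between digestion and Dounce gave a log2 difference of 6.02 (SE 1.60, unadjusted p = 0.00537), but it was not called after adjustment in edgeR (adjusted p = 0.9996). It was called with DESeq2 (6.12, adjusted p = 3.05e-05) and with edgeR when the spread was estimated with no robust option (adjusted p = 0.0287).

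Dusp6, the ERK-selective cytoplasmic phosphatase, was present in every preparation at a similar level. The counts were 1223, 521 and 878 UMIs in DNC-NONE replicates 1, 2 and 3, 997, 1322 and 1532 in DNC-INHIB replicates 4, 5 and 6, 1035, 857 and 1714 in ENZ-NONE replicates 4, 5 and 6, and 843, 1144 and 1317 in ENZ-INHIB replicates 1, 2 and 3. As levels, the group means were 466 ± 42.4 CPM in ENZ-INHIB, 484 ± 16.4 in DNC-INHIB, 489 ± 2.15 in DNC-NONE and 554 ± 76.4 in ENZ-NONE (SD, n = 3 each). In this order no neighbouring pair was called, and ENZ-NONE replicate 4, at 475 CPM, lay inside the range of the other 9 libraries (431 to 513).

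The fitted fold changes of Dusp6 with digestion were small and were not called. The log2 fold change of ENZ-NONE was 0.22 against DNC-NONE (95% interval 0.02 to 0.43, adjusted p = 0.556), 0.28 against ENZ-INHIB (0.08 to 0.49, adjusted p = 0.700) and 0.24 against DNC-INHIB (0.03 to 0.45, adjusted p = 0.419). The unadjusted p-values were 0.0356, 0.00893 and 0.0240 in the same edgeR fit, and the upper ends of the intervals correspond to 1.35, 1.41 and 1.36-fold. These ends lie below the fold change needed for a call, so a rise of this size could not be called. With batch as a covariate in edgeR the log2 fold changes were 0.22, 0.33 and 0.28 in the same order. Their unadjusted p-values were 0.0118, 0.000442 and 0.00181 (adjusted p = 0.307, 0.0840 and 0.0829), again not called. The fold changes of the main fit moved with the ENZ-NONE library left out. Without replicate 6, the highest, the log2 fold changes were 0.10, 0.16 and 0.11, and without replicate 4, the lowest, they were 0.33, 0.39 and 0.35 (edgeR adjusted p = 0.276, 0.115 and 0.151), again not called. Between the other groups the log2 fold changes were 0.02 for DNC-NONE against DNC-INHIB, and for ENZ-INHIB -0.04 against DNC-INHIB and -0.06 against DNC-NONE, with intervals inside -0.27 to 0.22.

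**Figure D2:**
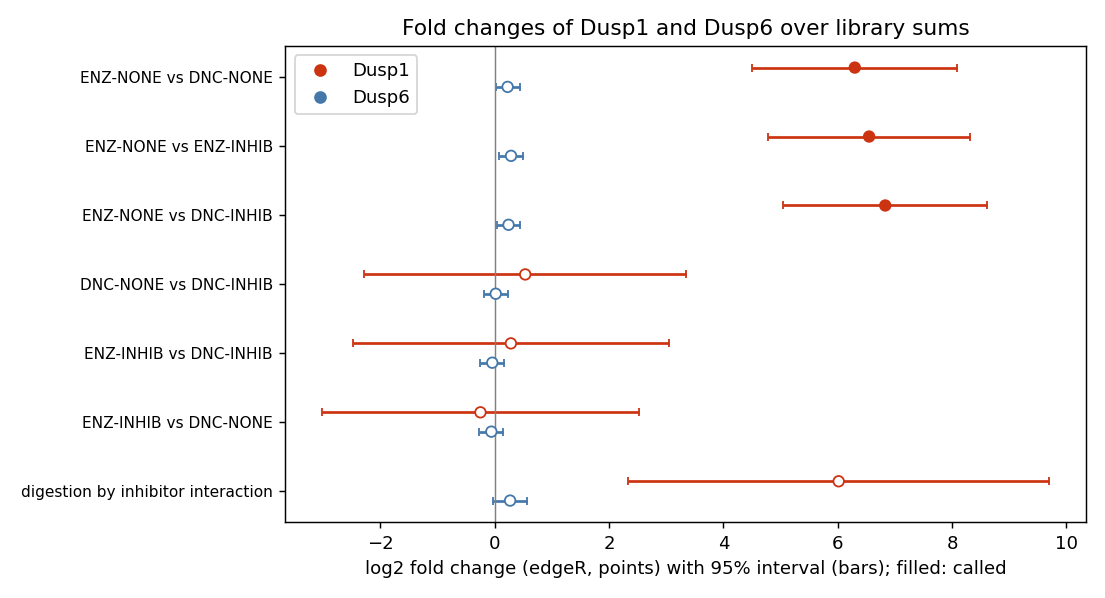
Log2 fold changes of Dusp1 (red) and Dusp6 (blue) from the edgeR fit over library sums (points) with 95% intervals (bars) for the 6 pairs of groups and the interaction of digestion and inhibitor, with filled points for called differences. Dusp1 is called at 6.30 to 6.83 in the 3 comparisons that hold ENZ-NONE, and every Dusp6 point lies between -0.06 and 0.28.

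Set against the whole table, Dusp1 was the only member called in any comparison. The share of all tested genes called in either direction was 0.465% for ENZ-NONE against DNC-NONE (46 genes), 0.293% against ENZ-INHIB (29 genes) and 0.739% against DNC-INHIB (73 genes). Of the 2 members that passed the low-count filter, 1 was called in each. It was 0.202% for ENZ-INHIB against DNC-INHIB (20 genes), 0.172% for ENZ-INHIB against DNC-NONE (17 genes) and 0.0607% for the interaction (6 genes), with no member called. For DNC-NONE against DNC-INHIB it was 0% in edgeR, with 435 genes at an unadjusted p below 0.05 and 1 gene called by DESeq2. Dusp1 reached the minimum of the filter in 7 of the 9 libraries outside ENZ-NONE, so it did not pass through ENZ-NONE alone. The study also names Dusp1 in an activation gene list chosen on these samples, so its direction here is not independent of that list.

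Dusp2, Dusp5 and Dusp10 were too sparse for the low-count filter and were read from their counts. Dusp10, which acts on JNK and p38, gave 7, 5 and 1 UMIs in DNC-NONE replicates 1, 2 and 3, 5, 7 and 9 in DNC-INHIB replicates 4, 5 and 6, 9, 4 and 2 in ENZ-NONE replicates 4, 5 and 6, and 2, 3 and 1 in ENZ-INHIB replicates 1, 2 and 3. The groups overlapped, except that each ENZ-INHIB library was below each DNC-INHIB library in level. Pooled over libraries, ENZ-NONE held 2.33 CPM and the other 9 libraries 1.96, a ratio of 1.19 with a 95% counting interval of 0.609 to 2.197.

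Dusp2, the inducible nuclear phosphatase, gave 4, 1 and 0 UMIs in DNC-NONE replicates 1, 2 and 3, 2, 2 and 5 in DNC-INHIB replicates 4, 5 and 6, 0, 5 and 2 in ENZ-NONE replicates 4, 5 and 6, and 0, 2 and 1 in ENZ-INHIB replicates 1, 2 and 3. As for Dusp10, the groups overlapped in level, except that each ENZ-INHIB library was below each DNC-INHIB library. The nearest of these, ENZ-INHIB replicate 2 and DNC-INHIB replicate 5, stood at 0.754 and 0.760 CPM, on 2 UMIs each. The ratio of ENZ-NONE to the other 9 libraries was 1.30 (interval 0.457 to 3.31). Dusp5, the nuclear ERK phosphatase, gave 0, 2 and 4 UMIs in the ENZ-NONE libraries, 0, 2 and 1 in ENZ-INHIB, 3, 0 and 1 in DNC-NONE and 0, 1 and 0 in the DNC-INHIB libraries, each in replicate order. Its ratio was 2.37 (interval 0.679 to 7.80). The same ratio for Dusp1, from 4631 and 144 UMIs, was 102 (interval 86.3 to 121), and for Dusp6 it was 1.17 (1.12 to 1.21). The intervals cover counting error only, not the spread between animals. The intervals of Dusp2, Dusp5 and Dusp10 all included a ratio of 1, so that no difference was detectable at this depth, and all ended far below the ratio of Dusp1.

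With no low-count filter all 5 genes entered the edgeR fit, and none of the 3 sparse genes was called in any comparison. The smallest unadjusted p was 0.0238, for Dusp10 in ENZ-INHIB against DNC-INHIB (log2 fold change -1.56, SE 0.69, adjusted p = 0.575). Dusp5 had the largest fitted difference of the sparse genes with ENZ-NONE, 2.47 against DNC-INHIB (SE 1.31, adjusted p = 0.699), which rests on 6 UMIs against 1.

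The share of cells with a UMI was compared after thinning every cell to 1000 UMIs, so that depth does not set it. For Dusp1 it was 1.25%, 0.462% and 0.185% in DNC-NONE replicates 1, 2 and 3, 0.556%, 0.331% and 0.575% in DNC-INHIB replicates 4, 5 and 6, and 0.819%, 0.684% and 0.374% in ENZ-INHIB replicates 1, 2 and 3. It was 11.2%, 14.3% and 29.4% in ENZ-NONE replicates 4, 5 and 6. The ENZ-NONE mean of 18.3% ± 9.77 (SD, n = 3) exceeded the mean of the other 9 libraries, 0.581% ± 0.314 (SD, n = 9), by 17.7 points (exact permutation test, two-sided, p = 0.00909, the smallest of 220 splits). Permuted within batch, p was 0.0222, the smallest that 90 splits can give. In batch 1 the means were 12.7% and 0.771% and in batch 2 29.4% and 0.430%. A comparison of 3 libraries with 3 cannot go below p = 0.1 in an exact permutation test, and each pair with ENZ-NONE gave that value.

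Without thinning, 201 of 1570 cells (12.8%, exact Clopper-Pearson 95% interval 11.2 to 14.6), 181 of 1118 (16.2%, 14.1 to 18.5) and 584 of 1748 (33.4%, 31.2 to 35.7) held a Dusp1 UMI in ENZ-NONE replicates 4, 5 and 6. The highest of the other libraries was DNC-NONE replicate 1, with 31 of 1839 cells (1.69%, 1.15 to 2.38). Free RNA can place a UMI in a droplet whose cell does not make the transcript. No sorted cell type was known to be free of these transcripts, so that background could not be read from the data.

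For Dusp6 the thinned share was 37.1%, 41.4% and 43.7% in ENZ-NONE replicates 4, 5 and 6, and 33.8%, 37.5% and 39.9% as the lowest, median and highest of the other 9 libraries. The difference of 3.34 points did not reach the threshold (exact permutation test, p = 0.0818, within batch p = 0.0889). By the same exact permutation test it became 5.17, 3.00 and 1.86 points without ENZ-NONE replicates 4, 5 and 6 (p = 0.0364, 0.291 and 0.327). Dusp2, Dusp5 and Dusp10 were found in 0 to 0.366%, 0 to 0.128% and 0.0290% to 0.487% of cells per library. Their differences between ENZ-NONE and the other 9 libraries were 0.0775, 0.0446 and 0.0869 points (exact permutation p = 0.445, 0.218 and 0.345). Before thinning, 0 of 1570 cells of ENZ-NONE replicate 4 held a Dusp2 or a Dusp5 UMI, which allows up to 0.191% of cells with a UMI and sets no limit on cells that express either gene. The Dusp5 difference was 0.0855, 0.0265 and 0.0217 points without ENZ-NONE replicates 4, 5 and 6 (exact permutation p = 0.0364, 0.582 and 0.655). These p-values are unadjusted, 1 test for each of the 5 genes.

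**Figure D3:**
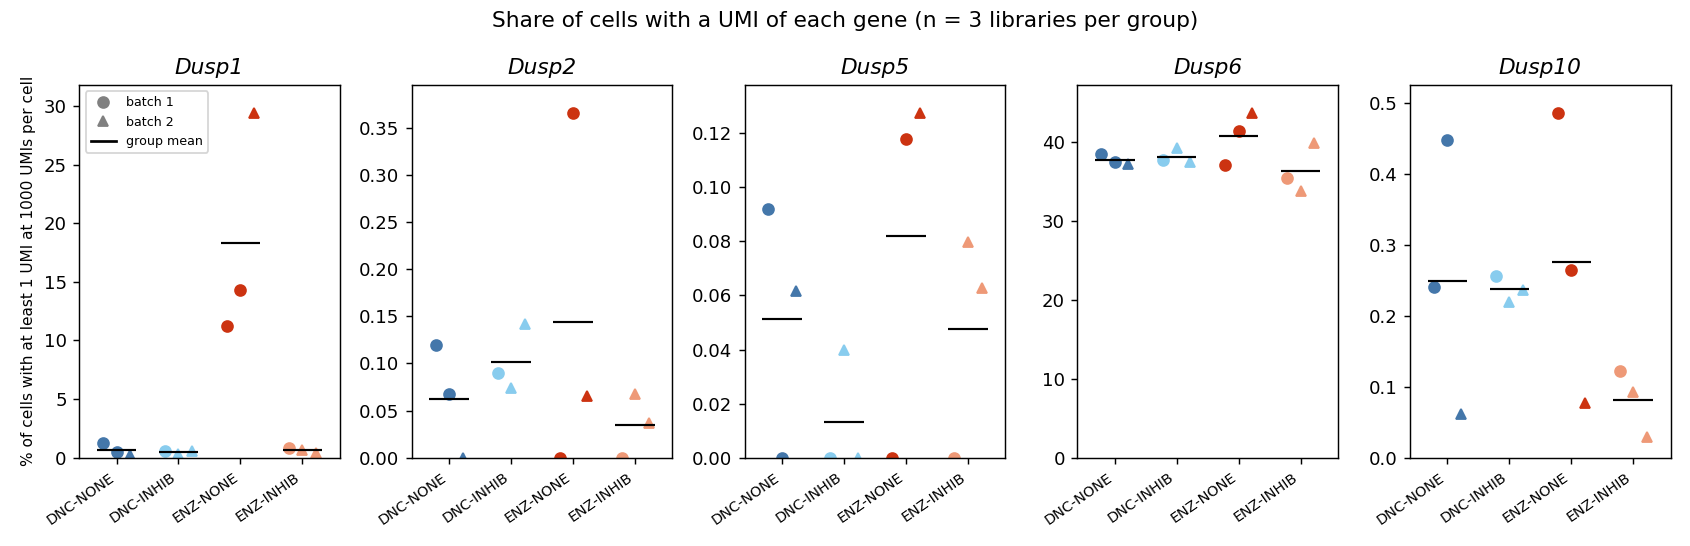
Percent of cells with at least 1 UMI of each gene after thinning to 1000 UMIs per cell (y axis, its own scale for each gene) in each library, with circles for batch 1, triangles for batch 2 and a line at each group mean. For Dusp1 the 3 ENZ-NONE libraries sit at 11.2%, 14.3% and 29.4% and no other library exceeds 1.25%, while for the other 4 genes the ENZ-NONE libraries overlap the rest.

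Dusp1 was also denser within the cells that held it. Positive cells carried on average 3.83, 3.19 and 5.62 UMIs in ENZ-NONE replicates 4, 5 and 6, and 1.00 to 1.43 in the other 9 libraries. Cells with at least 10 Dusp1 UMIs made up 1.15%, 0.894% and 6.52% of the ENZ-NONE libraries and were not seen in the others, where the highest count in a cell was 6. The highest counts in ENZ-NONE were 25, 25 and 34. Most ENZ-NONE cells held none, and 94.3%, 88.1% and 68.9% of Dusp1 UMIs lay in the 10% of cells with the most. That value was 100% in each of the other 9 libraries, where fewer than 10% of cells held Dusp1. It therefore depends strongly on the share of cells with a UMI. Dusp6 was spread differently, with 43.9% to 57.3% of cells at 0, a highest count of 8, and 33.8% to 39.5% of its UMIs in the top 10% of cells in every library.

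**Figure D4:**
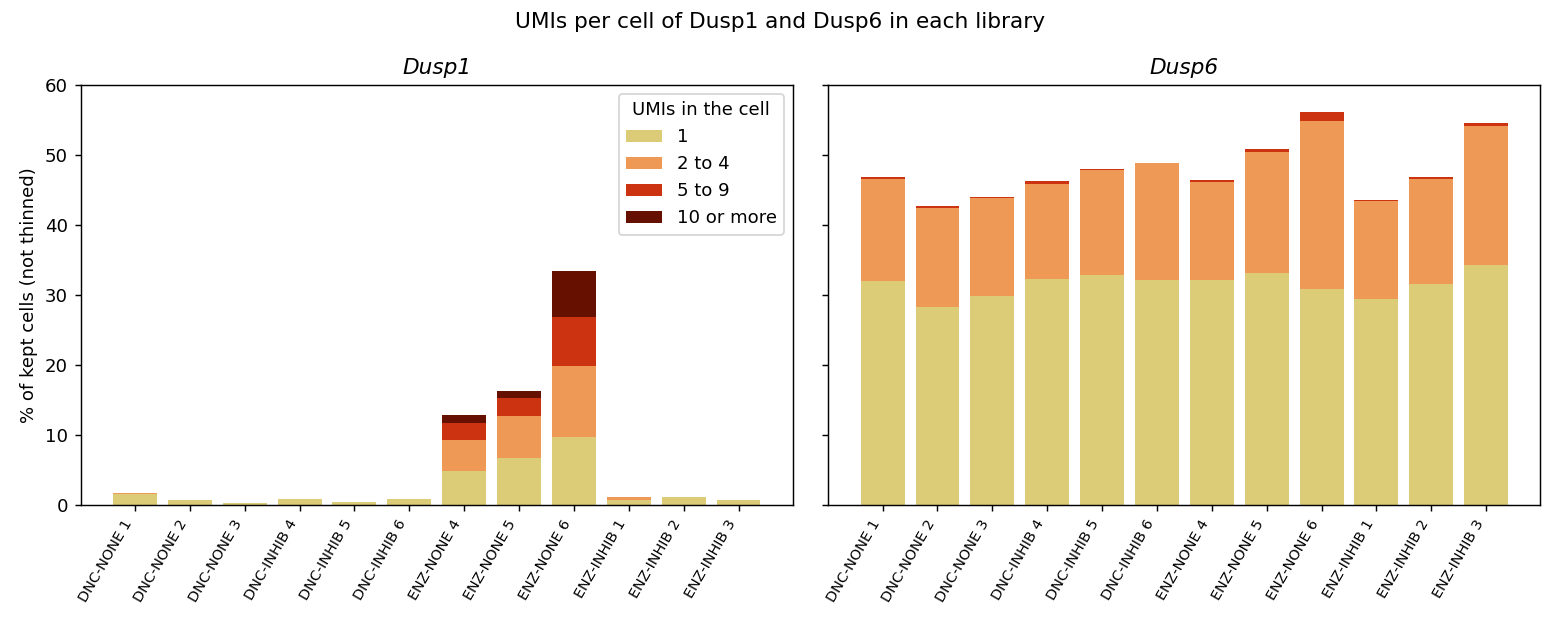
Percent of kept cells (y axis, not thinned) that hold 1, 2 to 4, 5 to 9 or 10 or more UMIs of Dusp1 (left) and Dusp6 (right) in each library (x axis, group and replicate number). Cells with 10 or more Dusp1 UMIs appear in the 3 ENZ-NONE libraries and reach 6.52% in replicate 6, while no library holds a cell with 10 or more Dusp6 UMIs.

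In the ENZ-NONE libraries, cells with Dusp1 more often held Fos, an immediate early gene encoding a subunit of AP-1, than cells without it. At 1000 UMIs per cell, 43.6%, 35.3% and 70.8% of Dusp1-positive cells held Fos in replicates 4, 5 and 6, against 9.33%, 11.2% and 25.2% of Dusp1-negative cells. Dusp6 was nearly even, found in 40.6%, 47.8% and 46.9% of Dusp1-positive cells and in 36.7%, 40.4% and 42.4% of Dusp1-negative cells. These shares describe cells of the same 3 libraries and carry no test.

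Cells were also divided by how many marker genes they held, which gives ranges of cells and not clusters. With at least 3 of 10 microglia markers and not counted in the other classes there were 18439 cells, 164 cells had at least 3 of 8 border macrophage markers (Mrc1, Pf4, Cd163 and others), of which 47 had exactly 3, and 142 had at least 3 of 6 monocyte markers. A further 68 cells had 2 border macrophage markers. In microglia marker cells Dusp1 stood at 316, 355 and 1132 CPM in ENZ-NONE replicates 4, 5 and 6. In the other 9 libraries it averaged 5.06 ± 2.37 (SD, n = 9).

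The border macrophage marker cells of ENZ-NONE held still more Dusp1, at 4485, 585 and 3080 CPM in replicates 4, 5 and 6, from 70, 4 and 76 UMIs in 10, 5 and 15 cells. This was above the microglia marker cells of the same library in 3 of 3 libraries, by 14.2, 1.65 and 2.72 times. In the other 9 libraries the border macrophage marker cells averaged 52.8 ± 84.6 CPM (SD, n = 9), from 9 UMIs in all, beside 5.06 in microglia marker cells. Over all 12 libraries Dusp1 was higher in border macrophage than in microglia marker cells in 8 and lower in 4, so a higher level there was not particular to ENZ-NONE. In border macrophage marker cells ENZ-NONE exceeded the other 9 libraries by 2664 CPM (exact permutation test, two-sided, p = 0.00909, within batch p = 0.0222). The monocyte marker cells of ENZ-NONE had 2446, 3448 and 2776 CPM, from 30 cells in all, and in the other 9 libraries they averaged 94.4 ± 136 (SD, n = 9). Of the 38 Dusp1 UMIs of DNC-NONE replicate 1, the highest Dounce library, 11 came from its 37 monocyte marker cells.

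Dusp6 in border macrophage marker cells was 320, 1316 and 851 CPM in ENZ-NONE replicates 4, 5 and 6. It was 188, 196 and 167 in ENZ-INHIB, 446, 366 and 532 in DNC-INHIB and 313, 578 and 543 in DNC-NONE, in replicate order. ENZ-NONE exceeded the other 9 libraries by 459 CPM without passing the test (exact permutation p = 0.0545). The difference was 713, 216 and 448 CPM without ENZ-NONE replicates 4, 5 and 6 (exact permutation p = 0.0364, 0.218 and 0.218). It also moved with the marker minimum, to 254 CPM at 2 or more markers (exact permutation p = 0.0909) and 291 CPM at 4 or more (p = 0.218). Every ENZ-INHIB library was below every Dounce library here, on 9 UMIs in 30 cells. Compared with the microglia marker cells of the same library, Dusp6 was lower in border macrophage marker cells in 7 of 12 libraries. In monocyte marker cells Dusp6 gave 4 UMIs in 30 ENZ-NONE cells and 13 UMIs in 20 ENZ-INHIB cells, numbers too small to rank.

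**Figure D5:**
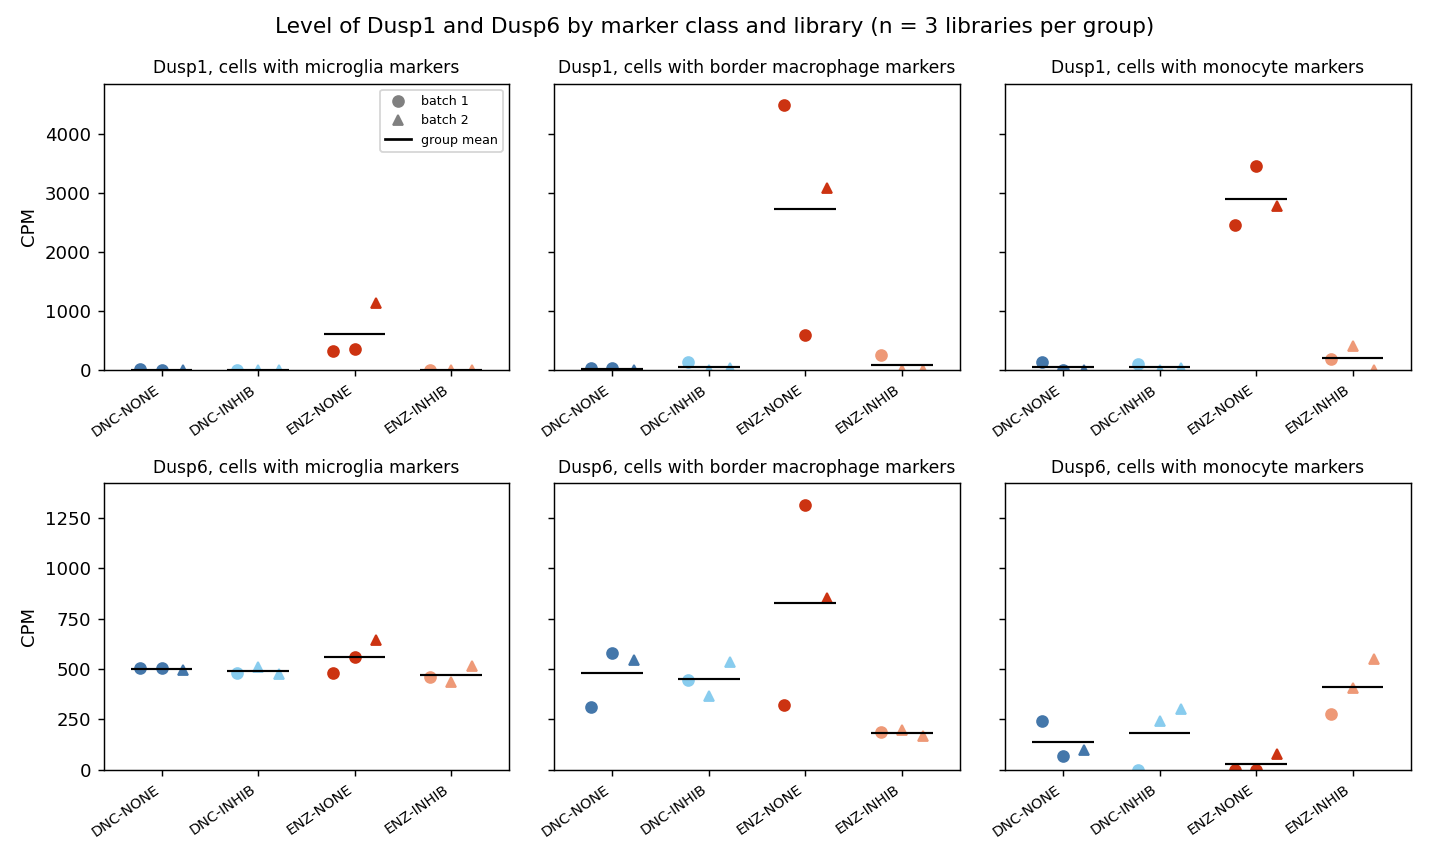
Level of Dusp1 (top) and Dusp6 (bottom) in CPM (y axis, linear, shared along a row) in cells with microglia, border macrophage or monocyte markers, by library, with circles for batch 1, triangles for batch 2 and a line at each group mean. The ENZ-NONE libraries lie above all others for Dusp1 in each class, up to 4485 in border macrophage marker cells, while Dusp6 in microglia marker cells stays close to the level of the whole library.

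The sparse genes differed in where their UMIs fell. Of the 54 cells with a Dusp10 UMI, 53 were microglia marker cells, and of the 23 with a Dusp2 UMI, 20 were. Of the 13 cells with a Dusp5 UMI, 7 were microglia marker cells and 5 held fewer than 3 markers of any class. In ENZ-NONE, 4 of the 6 Dusp5 UMIs came from 3 such cells, and 2 of the 5 Dusp5-positive cells there also held a UMI of a lymphocyte marker. Lymphocyte marker UMIs were seen in 0.225% of ENZ-NONE cells and in 0.0352% to 0.147% of the cells of the other groups, and their part in the Dusp5 counts was not tested. Dusp2, Dusp5 and Dusp10 gave 0 UMIs in the border macrophage marker cells of ENZ-NONE. In the other 9 libraries those cells held 1 Dusp2 UMI and none of Dusp5 or Dusp10, too few to compare.

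The rest of the pathway was read from 8 lists of 70 genes, of which 55 were tested. In ENZ-NONE against DNC-NONE and against ENZ-INHIB none of the 55 was called, and against DNC-INHIB 1 was called, higher. In edgeR 4, 2 and 5 of them (7.27%, 3.64% and 9.09%) had an unadjusted p below 0.05, near the shares over all tested genes (8.27%, 4.94% and 9.36%). The median log2 fold changes of the 55 were -0.01, -0.01 and 0.00 in these comparisons, beside 0.00, 0.00 and 0.01 over all genes. None was called in the other 3 pairs or in the interaction, where 2, 4, 4 and 1 (3.64%, 7.27%, 7.27% and 1.82%) had an unadjusted p below 0.05, against 4.40%, 8.48%, 10.4% and 3.28% of all tested genes. The MAP kinases themselves (7 of 11 tested), the kinases directly above them (7 of 7) and a tier further up (11 of 11), and the kinases they activate (9 of 10) held no called gene in any comparison, nor did the ternary complex and ETS factors (5 of 7).

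The called gene was Spry1, an inhibitor of receptor tyrosine kinase signalling to ERK, from the list of ERK feedback and adaptor genes (6 of 9 tested). It was higher in ENZ-NONE than in DNC-INHIB with a log2 fold change of 1.01 (SE 0.23, edgeR adjusted p = 0.0221). Against ENZ-INHIB the value was 0.93 (SE 0.23, adjusted p = 0.0861) and against DNC-NONE 0.57 (SE 0.23, adjusted p = 0.459), neither called. Its mean level was 18.5 ± 4.15 in ENZ-NONE, 10.1 ± 1.39 in ENZ-INHIB, 13 ± 2.34 in DNC-NONE and 9.77 ± 0.753 CPM in DNC-INHIB (SD, n = 3 each).

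Among the other MAP kinase phosphatases, Dusp7 and Dusp16 were tested and Dusp4, Dusp8 and Dusp9 were too sparse, with 1, 19 and 7 UMIs over all libraries. Dusp7, an ERK-selective relative of Dusp6, had 79 to 210 UMIs per library, and Dusp16, which acts on JNK and p38, had 8 to 35. Neither was called in any comparison. With ENZ-NONE their log2 fold changes lay between -0.04 and 0.37, where those of Dusp1 lay between 6.30 and 6.83. Of the 10 atypical dual-specificity phosphatases, 8 were tested and none was called. Their medians with ENZ-NONE were 0.21, 0.07 and 0.05 against DNC-NONE, ENZ-INHIB and DNC-INHIB, and the extremes across the 3 comparisons were -0.86 and 0.48.

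The genes whose log2 level ran most like that of Dusp1 over the 12 libraries were Jund (Pearson r = 0.98), Rgs1 (0.98) and Fos (0.97). Jund encodes another AP-1 subunit and Rgs1 a regulator of G-protein signalling. For Dusp6 they were Nop14 (0.94), a ribosome assembly factor, Coq10b (0.86), a coenzyme Q binding protein, and Hcar2 (0.86), a receptor for hydroxycarboxylic acids. These are descriptions over 12 libraries that share their depth and batches, and for Dusp1 the points fall into a high set of 3 and a low set of 9.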

How the data were processed

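CD45+/CD11b+ brain cells of 12 mice were sequenced with the 10X 3′ chemistry, 1 library per animal. The authors aligned the reads and counted UMIs with Cell Ranger 3.0.0 (mm10) and deposited UMI counts per gene and barcode, not normalized. The submitters' processing notes also name Seurat and bcl2fastq. Of 28426 deposited barcodes and 33742845 UMIs (2118143 to 3654465 per library), 18826 cells (66.2%) with 26845321 UMIs (1059783 to 3233159 per library) were kept, with at least 500 genes and 1000 UMIs and at most 10% mitochondrial UMIs. Cells with at least 3 marker genes and 5 UMIs of 1 non-myeloid list (such as neuron or astrocyte) were removed as doublets. This took out 4 cells, 0.0212% of those passing the filters, so doublets were in effect not removed.

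Counts were summed over the cells of a library and fitted over 4 groups with the edgeR 4.0.16 quasi-likelihood test (R 4.3.3, TMM factors, robust estimation of the spread). The robust option follows earlier processing of these data and was kept after both fits had been seen. Genes needed 4.28 UMIs per 1000000 (CPM) in at least 3 libraries, which left 9882, and calls needed an adjusted p under 0.05 and an absolute log2 fold change over 0.58. DESeq2 1.42.0 was an alternative. Only the edgeR fit was tried on simulated data, with the same fixed spread for all genes and changes smaller than those of Dusp1. Shares of cells were compared at 1000 UMIs per cell by exact permutation of libraries. Libraries of 1 group differed by more than counting noise, so each was 1 replicate. Depth sets the precision: intervals on shares (Clopper-Pearson, 95%) and ratios of counts (exact conditional) and the limit for a count of 0 (3 counts) cover counting error only.

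The members were given by symbol, and members, marker lists and pathway lists were chosen with earlier results of these data known. Named genes were the members, any pathway gene called, and the 3 tested genes most correlated with each tested member. Alternatives are given in the closing section.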

Additional observations from a re-analysis of the deposited data

Results flagged for a closer look

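Barcodes that failed the cell filters, between 350 and 1658 per library, were left out of the main comparisons, and Dusp1 was high there in ENZ-NONE as well. Their Dusp1 level was 298, 468 and 1147 CPM (UMIs of the gene per 1000000 UMIs of those barcodes) in ENZ-NONE replicates 4, 5 and 6, with a mean of 638 ± 449 (SD, n = 3), against 5.92 ± 5.38 (SD, n = 9) in the other libraries. The difference was 631.8 CPM (exact permutation test, two-sided, p = 0.00909, the smallest of 220 splits, and p = 0.0222 within batch, the smallest of 90). Low-depth cells and free RNA both fall among such barcodes, and their parts were not tested.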

How the results depend on the processing

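Limits: each group has 3 animals, Dusp2, Dusp5 and Dusp10 rest on 14 to 55 UMIs, and only replicate 6 represents ENZ-NONE in batch 2. With no low-count filter 103, 60, 142, 19, 67, 108 and 16 genes were called for ENZ-NONE against DNC-NONE, ENZ-INHIB and DNC-INHIB, DNC-NONE against DNC-INHIB, ENZ-INHIB against DNC-INHIB and DNC-NONE, and the interaction. DESeq2 called 1 gene for DNC-NONE against DNC-INHIB, 10 for ENZ-INHIB against DNC-INHIB and 19 for the interaction, 1 of them a member, Dusp1 (log2 6.12). Batch as a covariate gave 1, 36 and 10 in the same comparisons. All deposited barcodes gave 33 for ENZ-INHIB against DNC-INHIB and 27 against DNC-NONE. No robust option, an alternative chosen after seeing the data, gave 10 for ENZ-INHIB against DNC-NONE and 17 for the interaction, 1 of them a member, Dusp1. The cause of these shifts was not tested. At a minimum of 2 UMIs the share differences of Dusp2 and Dusp10 became -0.00209 and -0.00213 points, and with at least 2 border macrophage markers that of the Dusp2 level became 4.89 CPM, on too few UMIs to test. At 2 or more and 4 or more such markers the Dusp6 difference was 254 and 291 CPM, beside 459.

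Numbers were shared by ENZ-NONE and DNC-INHIB (r = 0.111, -0.01 and 0.155 between same-numbered libraries) and by ENZ-INHIB and DNC-NONE (-0.08, -0.05 and 0.02). They were not taken as pairs in the main fit, and these correlations do not settle whether they mark pairs. With a replicate block, fitted to the libraries of the compared groups alone, 104 genes were called in the first comparison and 90 in the second. The fit of all 12 libraries without a block gave 73 and 17. Block and set of libraries changed together, so their parts cannot be told apart. The Dusp1 log2 fold change in the second comparison became 0.0163 with the block.

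Leaving out 1 library at a time gave 29 to 67, 14 to 39, 46 to 90, 0 to 3, 5 to 36, 1 to 46 and 4 to 10 called genes in the order above. Members called ran from 0 to 1 in ENZ-NONE against DNC-NONE and against ENZ-INHIB. Dusp1 log2 fold changes ran from 5.42 to 7.71 and from 5.68 to 6.85 there, and -0.89 to 0.98, -0.0220 to 0.68 and -0.71 to 1.16 in the pairs without ENZ-NONE. Dusp6 ran from 0.10 to 0.33, 0.16 to 0.39 and 0.11 to 0.35 for ENZ-NONE against DNC-NONE, ENZ-INHIB and DNC-INHIB, from -0.0108 to 0.0458 (DNC-NONE against DNC-INHIB) and -0.13 to 0.00475 (ENZ-INHIB against DNC-INHIB). The share differences ran from 12.1 to 21.3 points (Dusp1), -0.0336 to 0.149 (Dusp2, negative without ENZ-NONE replicate 5), 0.0217 to 0.0855 (Dusp5), 1.86 to 5.17 (Dusp6) and -0.0184 to 0.186 (Dusp10, negative without ENZ-NONE replicate 4). Dusp6 in border macrophage marker cells ran from 216 to 713 CPM. The Dusp1 share difference passed its test in each of these.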
